A study of Mus musculus with 18 samples.

Results

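The genes described here are X-linked genes of mouse B cells that the authors left out of their deposited table of genes with expression from the inactive X chromosome, called the escape table below. A gene was chosen by 4 conditions: it lay on chromosome X, its name occurred once in the gene tables of both strains, it was absent from the escape table, and it had at least 30 reads over both alleles in each of 6 samples. The conditions left 88 of 1048 matched X-linked genes. The series has 28374 matched genes on all chromosomes.

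The 6 samples were splenic B cells positive for CD23, a surface receptor of mature follicular B cells, taken from female F1 mice of a 129S1 and Cast cross that carried Xist+/-. In these mice the Cast X chromosome is always the inactive one. Given to the right strain, 129 reads of an X-linked gene therefore report on the active X and Cast reads on the inactive X. The share of reads given to the wrong strain was not measured, so a few Cast reads cannot be told apart from such reads. 3 samples were naive and 3 had been stimulated in culture for 24 h with CpG at 1 µM. The naive samples had no such time in culture, so effects of CpG and of culture cannot be told apart here. CpG is a synthetic stretch of DNA that Toll-like receptor 9 of B cells senses as microbial. The labels do not say which allele of Xist is altered, and Xist reads of both alleles were present. The labels do not say whether the samples of a group came from separate animals, so p-values measure the spread between these samples, which may be technical. The other 12 samples of the series, B cells and fibroblasts of a B6 and Cast cross, are not analysed here.

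In female mammals, one X chromosome of each cell is silenced when Xist, a long noncoding RNA, coats the chromosome it is made from and brings in repressive complexes. Most X-linked genes are then read from the active X alone, while a minority, the escape genes, keep some expression from the inactive X. In lymphocytes the coat of Xist RNA is loose or absent at rest and returns to the inactive X after stimulation. X-linked genes outside the escape group are the ones for which silencing of the inactive copy is the usual state.

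Before the read minimum, 944 matched X-linked genes stood outside the escape table, of which 598 had no read in any sample and 346 had some. The minimum was reached in all naive but not all stimulated samples by 16 genes, and in all stimulated but not all naive samples by 18. Genes switched on or off between the groups were therefore removed by the rule, and 822 genes reached the minimum in neither group. Just inside the minimum stood Trmt2b, with 30 reads in its lowest sample, and Amer1 and Pja1, with 31 each. Just outside stood Ubl4a with 28, and Ngfrap1 and Uxt with 26 each.

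Gene reads in the 129 tables ranged from 1987266 to 2375717 in naive and from 2811986 to 2928236 in stimulated samples. In the Cast tables they ranged from 2465073 to 2699606 in naive and from 3119432 to 3321753 in stimulated samples. The 88 genes together held 9208 to 10621 reads per naive and 13184 to 14154 per stimulated sample. Stimulated samples were thus deeper without overlap, and the part of depth in the comparison was not tested. All 12 listed B cell markers had reads, and their summed level in the 129 tables was 17259 to 19534 RPM (reads-per-million gene reads) in naive and 4344 to 5005 RPM in stimulated samples. Of 18 macrophage markers all but Lyz2 had reads, with a summed level of 3988 to 8043 RPM in naive and 30.1 to 39.5 RPM in stimulated samples. All 16 macrophage markers that could be tested were lower after stimulation, and naive replicate 1 had the highest sum. The 12 B cell markers were all called lower too. T cell markers summed to at most 65.4 RPM in naive and 10.9 RPM in stimulated samples. Erythroid and platelet markers summed to 45.9 to 113 RPM in naive and 1.42 to 3.07 RPM in stimulated samples. For dendritic cell markers the sums were 54.8 to 97.5 RPM in naive and 43.8 to 74.7 RPM in stimulated samples. The part of these other cells in the falls below was not tested, and in bulk samples fewer cells of a type and less RNA per cell cannot be told apart. The Cast share of Xist reads was 87.5% ± 1.19 in naive and 88.3% ± 0.650 in stimulated samples (SD, n = 3 each).

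On the active X, the 88 genes split almost evenly after stimulation: 21 rose, 20 fell and 47 did not pass the test. The test was edgeR's quasi-likelihood test on the 129 counts, with p-values adjusted by Benjamini-Hochberg over all 10581 genes tested and a threshold of 0.05. The 41 called genes were 46.6% of the 88, 23.9% higher and 22.7% lower. Among all genes tested in the 129 tables, 55.2% were called, 28.2% higher and 27.0% lower. Matched autosomal genes with the same read minimum were called in 54.2% of cases. Groups did not overlap in counts-per-million (CPM) for 52 of the 88 genes, against 64.8% of all genes tested. The share of the 88 called was below that of all genes in this fit, and the difference was not tested. With no filter on low counts 41 of the 88 were again called but 33.4% of 18629 genes, the opposite order. With DESeq2 36 of the 88 (40.9%) were called and 41.4% of 14528 genes. The main fit held 10581 genes, and the fit with no filter added genes of low counts while the 88 stayed the same. The order across these fits therefore does not compare like sets.

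The escape table genes with the same read minimum, 97 in all, were called more often, in 72.2% of cases, 46.4% higher and 25.8% lower. Their median log2 fold change was 0.29, that of the 88 genes was 0.01 and that of all genes tested was -0.01. The quartiles of the 88 were -0.45 and 0.50, and those of matched autosomal genes with the read minimum were -0.65 and 0.74. Escape table genes also had more reads, a median of 324.5 per sample over both alleles against 109 for the 88, and a gene with more reads needs a smaller change to pass. The part of read depth in the difference was not tested.

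**Figure D1:**
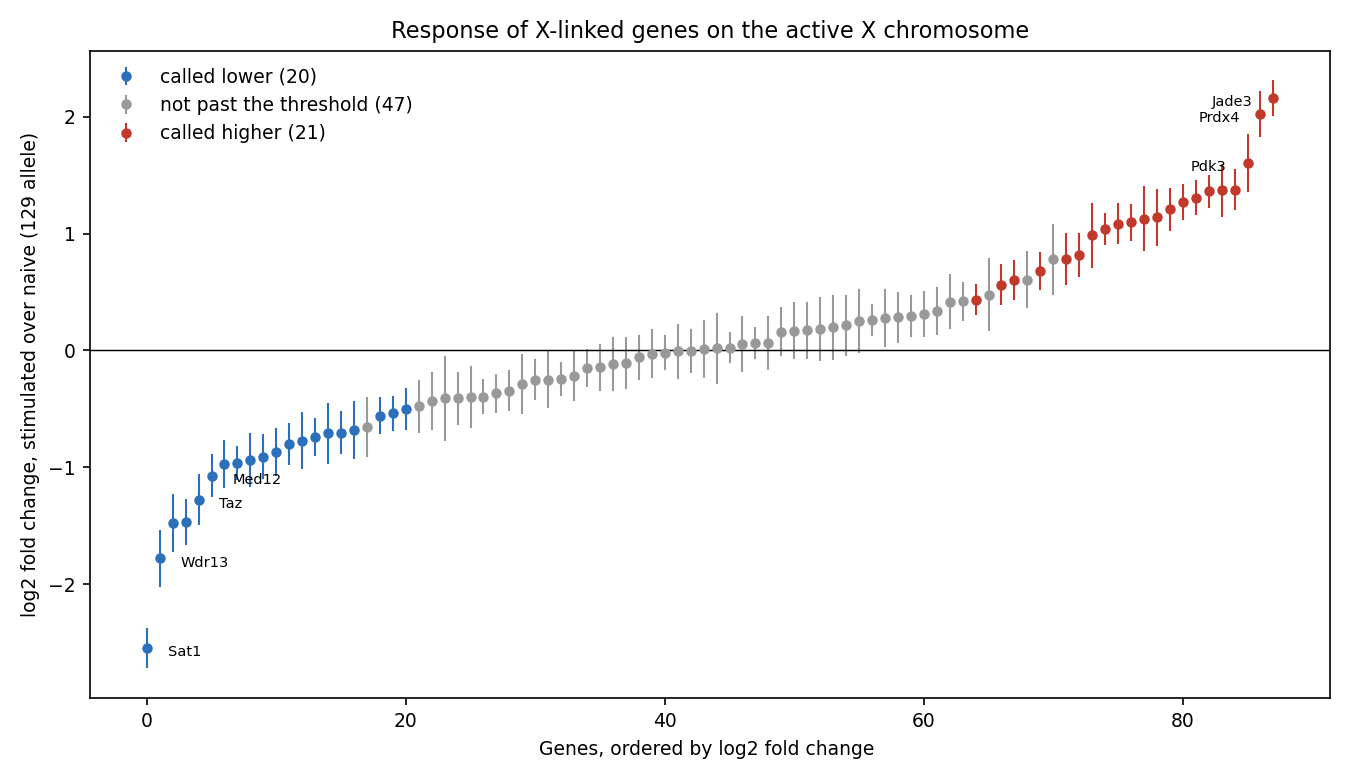
The log2 fold change of 129 reads, stimulated over naive, is plotted for each of the 88 genes in rising order, with its standard error as a bar and 3 samples per group. The 20 genes called lower are blue, the 21 called higher red and the 47 not past the threshold grey; Sat1 at -2.55 and Jade3 at 2.16 are the ends of the range.

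Jade3 and Prdx4 rose most. Jade3 encodes a scaffold subunit of the HBO1 histone acetyltransferase complex. Its 129 level was 27.5, 23.3 and 26.1 CPM in naive replicates 1 to 3 and 120, 101 and 123 CPM in stimulated replicates 1 to 3. All stimulated samples lay far above all naive ones, a 4.47-fold rise (log2 fold change 2.16, SE 0.15, edgeR adjusted p = 3.03e-05). Prdx4, a peroxiredoxin of the endoplasmic reticulum that removes peroxide formed as secreted proteins fold, had 25.0, 35.3 and 32.1 CPM in naive and 113, 152 and 110 CPM in stimulated samples. Its groups did not overlap either, and it rose 4.07-fold (log2 fold change 2.02, SE 0.20, edgeR adjusted p = 0.000135).

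Pdk3 encodes a kinase that switches off pyruvate dehydrogenase and so limits entry of pyruvate into the citric acid cycle. Naive samples had 31.0, 43.6 and 21.6 CPM of Pdk3 and stimulated samples 91.7, 102 and 99.8 CPM. The highest naive sample was far below the lowest stimulated one, and the log2 fold change was 1.60 (SE 0.24, edgeR adjusted p = 0.00109). Hdac6 encodes the cytoplasmic deacetylase of tubulin. It had 49.0, 54.0 and 46.1 CPM in naive and 117, 142 and 125 CPM in stimulated samples, without overlap (log2 fold change 1.36, SE 0.14, edgeR adjusted p = 0.000152).

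Lage3, Ftsj1 and Piga also rose by more than 1 on the log2 scale. Lage3, a subunit of the KEOPS complex that modifies tRNA, rose from 25.1 ± 3.43 to 65.4 ± 7.85 CPM (SD, n = 3 each). Ftsj1, a methyltransferase of tRNA, rose from 62.4 ± 4.14 to 155 ± 23.6 CPM. Piga, which catalyses the first step in the synthesis of the GPI anchor, rose from 16.3 ± 2.21 to 42.2 ± 8.44 CPM. The groups did not overlap for any of these genes. Their log2 fold changes were 1.38 for Lage3, 1.31 for Ftsj1 and 1.37 for Piga.

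Psmd10, Vbp1, Mmgt1, Wbp5, Tbl1x and Mtmr1 rose by more than 1 on the log2 scale as well. Psmd10, an assembly chaperone of the proteasome, had 40.9, 32.0 and 50.6 CPM in naive and 95.3, 98.2 and 91.4 CPM in stimulated samples (log2 fold change 1.21). Vbp1, a subunit of the chaperone prefoldin, had 19.4, 20.4 and 24.6 CPM in naive and 57.9, 30.1 and 52.4 CPM in stimulated samples, with stimulated replicate 2 closest to the naive range. Mmgt1, a subunit of the complex that inserts membrane proteins into the endoplasmic reticulum, showed the same shape, with 33.6, 34.1 and 33.1 CPM against 83.8, 48.2 and 90.0 CPM. In both genes stimulated replicate 2 was the lowest of its group and still above every naive sample. Wbp5 rose from 55.9 ± 9.51 to 119 ± 6.70 CPM, Tbl1x, a subunit of the NCoR and SMRT corepressor complexes, from 32.7 ± 5.41 to 69.4 ± 5.60 CPM, and Mtmr1, a phosphoinositide phosphatase, from 65.1 ± 8.18 to 134 ± 6.74 CPM.

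Sat1 fell most. It encodes spermidine/spermine acetyltransferase, the enzyme that marks polyamines for breakdown and export. Naive samples had 163, 160 and 163 CPM and stimulated samples 27.3, 33.7 and 22.0 CPM. The SD of the naive samples was 1.40 CPM, and the level in stimulated samples was 5.85-fold lower (log2 fold change -2.55, SE 0.17, edgeR adjusted p = 2.84e-05). Macrophage markers summed to 8043, 3988 and 4887 RPM in naive replicates 1 to 3 and to at most 39.5 RPM in stimulated samples, and their part in the fall of Sat1 was not tested.

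Wdr13, a protein of WD repeats, had 66.7, 63.2 and 68.7 CPM in naive and 16.5, 26.6 and 14.7 CPM in stimulated samples (log2 fold change -1.78, SE 0.24, edgeR adjusted p = 0.000645). Slc25a53, a member of the mitochondrial carrier family, had 183, 113 and 200 CPM in naive and 72.6, 51.0 and 54.4 CPM in stimulated samples. Its naive replicate 2 was the lowest of the naive samples and was still above every stimulated one (log2 fold change -1.47, SE 0.25). 5430427O19Rik, a gene named only by its clone, fell from 65.4 ± 7.43 to 23.5 ± 4.40 CPM (log2 fold change -1.47). Taz, which encodes tafazzin, the enzyme that remodels cardiolipin in mitochondria, had 33.6, 48.6 and 46.1 CPM in naive and 15.8, 19.8 and 17.1 CPM in stimulated samples (log2 fold change -1.28).

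**Figure D2:**
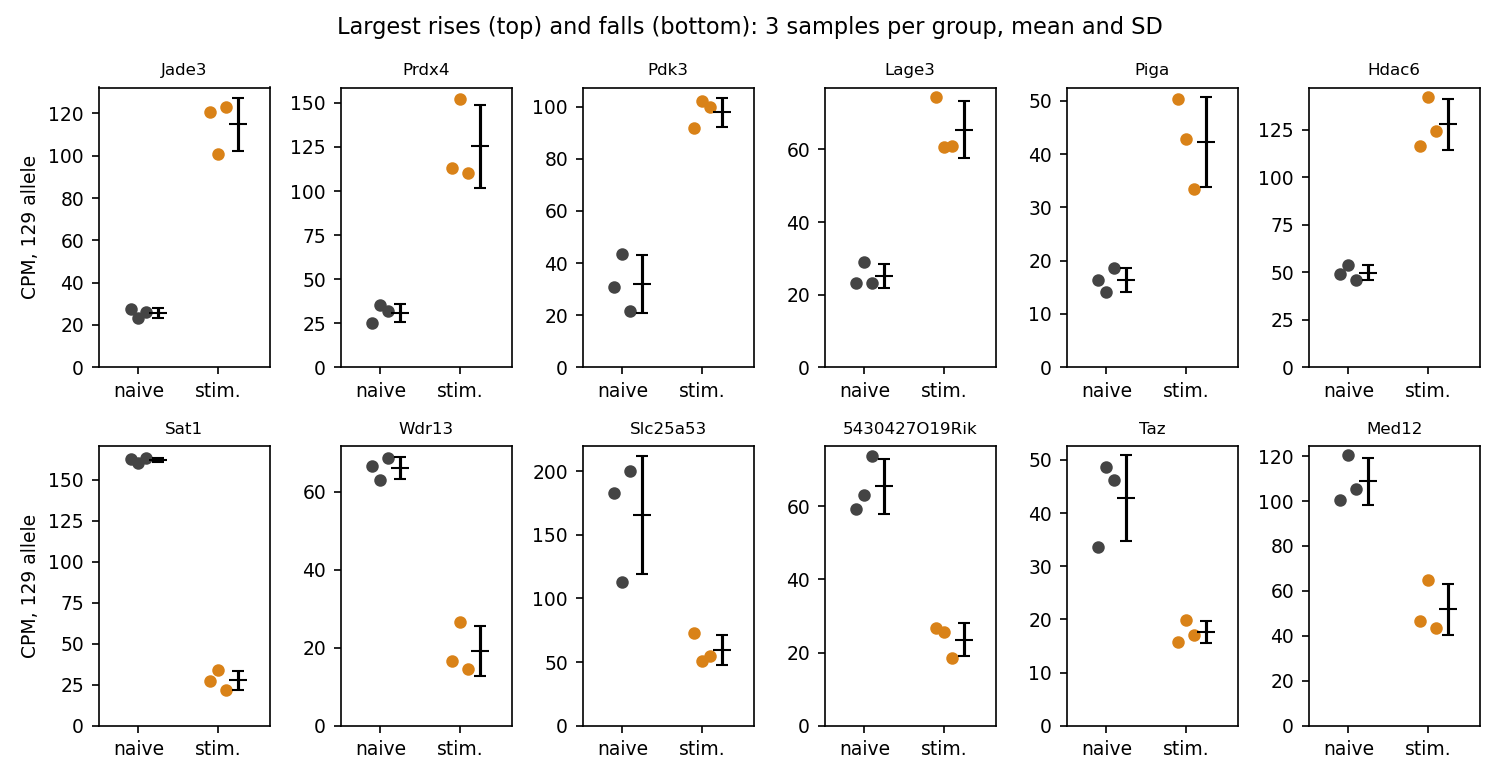
Points show the 129 level in CPM of each sample, naive in grey and stimulated in orange, for the 6 largest rises (top row) and the 6 largest falls (bottom row); each bar is the mean and SD of 3 samples and each panel has its own axis from 0. In all 12 panels the naive and stimulated points are separate.

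The 2 Mediator subunits among the 88 genes moved in opposite directions. Mediator is the complex that links transcription factors to RNA polymerase II. Med12, of its detachable kinase module, had 101, 120 and 105 CPM in naive and 46.7, 64.9 and 43.6 CPM in stimulated samples (log2 fold change -1.07, SE 0.18, edgeR adjusted p = 0.00188). Med14, the backbone of its core, had 58.9, 88.1 and 76.2 CPM in naive and 120, 113 and 125 CPM in stimulated samples (log2 fold change 0.68, SE 0.17, edgeR adjusted p = 0.00975).

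Araf and Rps6ka3, kinases of the cascade around ERK, both fell. Araf, a RAF kinase at the head of the cascade that leads to ERK, had 68.8, 85.6 and 70.7 CPM in naive and 43.2, 50.7 and 35.3 CPM in stimulated samples (log2 fold change -0.80, edgeR adjusted p = 0.00725). Rps6ka3, the kinase RSK2 that ERK activates, had 30.1, 32.8 and 33.1 CPM in naive and 17.3, 13.5 and 18.1 CPM in stimulated samples (log2 fold change -0.97, edgeR adjusted p = 0.00543). Of 13 genes in the list of kinases, phosphatases and GTPase regulators, 2 rose, Pdk3 and Mtmr1, 3 fell, Araf, Rps6ka3 and Phka2, and 8 did not pass. The median log2 fold change of this list was -0.14. Among all genes tested 55.2% were called, and neither this list nor those below were tested against that share.

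Of 13 genes of nucleotide, energy and lipid metabolism, 10 were called, 5 in each direction, beside 55.2% of all genes tested (28.2% higher, 27.0% lower). Acot9, Alg13, Hsd17b10 and Piga were among those that rose, and Atp7a, Ids, Sat1, Slc25a53 and Taz fell. Ids, the lysosomal enzyme that removes sulfate from heparan and dermatan sulfate, fell from 81.2 ± 6.30 to 41.7 ± 3.89 CPM. Atp7a, the copper transporter of the secretory pathway, had 55.2 ± 7.16 CPM in naive and 34.4 ± 10.7 CPM in stimulated samples and passed narrowly (edgeR adjusted p = 0.0492). It did not pass in DESeq2 or when any 1 of 5 samples was left out, with edgeR adjusted p up to 0.143 without naive replicate 1. The median over the 13 genes was -0.28.

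Of 15 genes of chromatin and transcription 3 rose, Jade3, Hdac6 and Med14, and 3 fell, Med12, Brwd3 and the zinc finger gene Zfp182, which went from 75.0 ± 6.69 to 44.8 ± 6.23 CPM. The other 9 did not pass, and the list's median log2 fold change was -0.0042. Of 10 genes in the list of RNA processing and translation 3 rose, Lage3, Ftsj1 and Naa10, the catalytic subunit of an acetyltransferase of protein N-termini, which went from 32.8 ± 6.56 to 57.8 ± 5.06 CPM. The genes of that list that fell were Zcchc18 and Tceanc, which are not known as translation factors, and its median was 0.18. Zcchc18 had 35.3, 24.1 and 26.6 CPM in naive and 14.7, 20.2 and 15.4 CPM in stimulated samples (edgeR adjusted p = 0.0307). Its call was lost in DESeq2 and without naive replicate 1, naive replicate 3, stimulated replicate 1 or stimulated replicate 3, with edgeR adjusted p of 0.0574 to 0.109. Tceanc passed narrowly (edgeR adjusted p = 0.0480), and its call was lost with no filter on low counts (edgeR adjusted p = 0.124), in DESeq2 (adjusted p = 0.132) and without any 1 sample but stimulated replicate 2 (edgeR adjusted p of 0.0806 to 0.140).

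In the list of cytoskeleton, adhesion and membrane traffic, 3 of 17 genes rose and 3 fell, with a median of 0.06. The rises were Vbp1, Tbl1x and Emd, and the falls were Wdr13, Armcx5 and Mospd2. Tbl1x acts in transcription and Vbp1 in protein folding, so the genes that moved there are not all of the kind the list names. The call of Emd was lost in DESeq2 (adjusted p = 0.0690) and without naive replicate 1 or 2 or stimulated replicate 1 or 3 (edgeR adjusted p of 0.0688 to 0.0917). Mospd2, whose groups overlapped in CPM, lost its call in DESeq2 (adjusted p = 0.0606) and without any 1 sample but naive replicate 3 (edgeR adjusted p of 0.0824 to 0.158). Armcx5 fell from 26.1 ± 1.70 to 14.3 ± 1.01 CPM. The list of immune receptors and signalling held 3 of the 88 genes, of which Nkap, a nuclear protein that takes part in splicing, rose from 78.5 ± 11.2 to 119 ± 18.7 CPM (edgeR adjusted p = 0.0194). Nkap's call was lost without naive replicate 2, stimulated replicate 1 or stimulated replicate 3, with edgeR adjusted p of 0.0559 to 0.0651. Bcap31 and Ssr4, both of the endoplasmic reticulum, did not pass.

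Klhl15, an adaptor of CUL3 ubiquitin ligases, fell from 57.1 ± 11.8 to 29.7 ± 6.05 CPM, and Pja1, the other gene of the ubiquitin list, did not pass. Psmd10 was the 1 gene of the cell cycle list among the 88. No gene of the 41 listed as neuronal or germline was among them. In no list stood 14 genes, of which 3 rose, Prdx4, Mmgt1 and Wbp5, and 3 fell, 5430427O19Rik, BC065397 and Fam3a, the last from 31.3 ± 2.42 to 16.6 ± 0.778 CPM.

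Several well counted genes did not pass. Bcap31, a transmembrane chaperone of the endoplasmic reticulum, had 170, 165 and 172 CPM in naive and 148, 171 and 198 CPM in stimulated samples, with the stimulated values on both sides of the naive ones (log2 fold change 0.02, SE 0.13). Atp6ap2, an accessory subunit of the vacuolar proton pump, had a log2 fold change of -0.06 (SE 0.19), Ofd1, a centriole protein, of 0.16 (SE 0.21) and Fam199x of -0.11 (SE 0.23). For each of these the difference was within 1 SE of 0, and each changed sign when 1 sample was left out.

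The promoters of a pair of genes that rose and a pair that fell are shown as examples of the searched motifs, and were picked with the matches known. Each sequence is the 120 bases before the gene's start, 5′ to 3′ on the gene's strand, from RefSeq on GRCm38.p6. Jade3 lies on the plus strand (chrX:20425568-20425687), Hdac6 on the minus strand (chrX:7947890-7948009), Sat1 on the minus strand (chrX:155216450-155216569) and Med12 on the plus strand (chrX:101273971-101274090). Capitals mark matches to the searched motifs, and ATTGG and CCGGAA are CCAAT and TTCCGG read on the other strand.
Jade3: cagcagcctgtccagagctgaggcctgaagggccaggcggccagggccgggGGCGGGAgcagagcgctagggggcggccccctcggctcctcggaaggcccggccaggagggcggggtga
Hdac6: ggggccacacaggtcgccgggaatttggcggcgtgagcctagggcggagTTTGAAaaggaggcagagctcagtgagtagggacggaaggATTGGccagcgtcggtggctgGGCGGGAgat
Sat1: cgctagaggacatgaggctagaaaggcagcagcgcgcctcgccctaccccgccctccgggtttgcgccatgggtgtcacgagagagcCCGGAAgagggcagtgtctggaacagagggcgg
Med12: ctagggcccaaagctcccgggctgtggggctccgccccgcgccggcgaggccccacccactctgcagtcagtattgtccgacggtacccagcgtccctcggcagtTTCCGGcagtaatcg

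Jade3 and Hdac6 hold GGCGGGA, a motif like the site of E2F factors, and Sat1 and Med12 hold TTCCGG, the core of sites for ETS factors, by the choice of examples. Prdx4 and Lage3, which rose, had no GGCGGGA in their windows, and Wdr13, which fell, had no TTCCGG. Windows of 250 bases before to 50 bases after the start were at hand for 77 of the 88 genes, 89 windows in all, and were searched on both strands. GGCGGGA was in 9 of 19 windows of genes that rose (47.4%), 3 of 21 of genes that fell (14.3%), 9 of 49 of the other genes (18.4%) and 11.3% of all 32851 promoter windows. TTCCGG was in 3 of 19 windows of genes that rose (15.8%), 11 of 21 of genes that fell (52.4%), 11 of 49 of the other genes (22.4%) and 14.9% of all windows. CCAAT was in 14 of 19, 7 of 21 and 25 of 49 windows (73.7%, 33.3% and 51.0%), against 37.4% of all. CACGTG, the E-box, was in 5.26%, 4.76% and 14.3% of windows, against 7.15% of all, and TTTGAA in 21.1%, 4.76% and 18.4%, against 17.9%. No motif contains another, a gene can have several windows, and a match is no proof that a factor binds there.

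On the inactive X, reads were few: 1716 of 70602 reads of the 88 genes over all 6 samples were Cast reads. The escape table gives inactive X values of these same groups, so absence from it selects on Cast reads, and the low Cast share of the 88 is a description of that choice with no test. Of the summed reads, 1.86% were Cast reads in naive replicate 1, with a 95% Wilson interval of 1.62 to 2.15. Naive replicate 2 stood at 2.62% (2.33 to 2.94) and naive replicate 3 at 3.14% (2.80 to 3.51). Stimulated replicate 1 stood at 1.98% (1.76 to 2.24), stimulated replicate 2 at 2.96% (2.68 to 3.26) and stimulated replicate 3 at 2.16% (1.94 to 2.41). Group means were 2.54% ± 0.641 and 2.37% ± 0.518 (SD, n = 3 each), and the groups overlapped. Intervals and zero-count limits reflect counting alone: the reads carry no molecular identifiers, and copies of 1 molecule count more than once.

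Without Xist, the escape table genes with the read minimum had a share of 7.48% ± 1.14 in naive and of 10.7% ± 0.479 after stimulation, and their groups did not overlap. Matched autosomal genes had 52.7% ± 0.793 and 52.9% ± 0.812. For the same reason the gap between the table genes and the 88 is also a description.

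**Figure D3:**
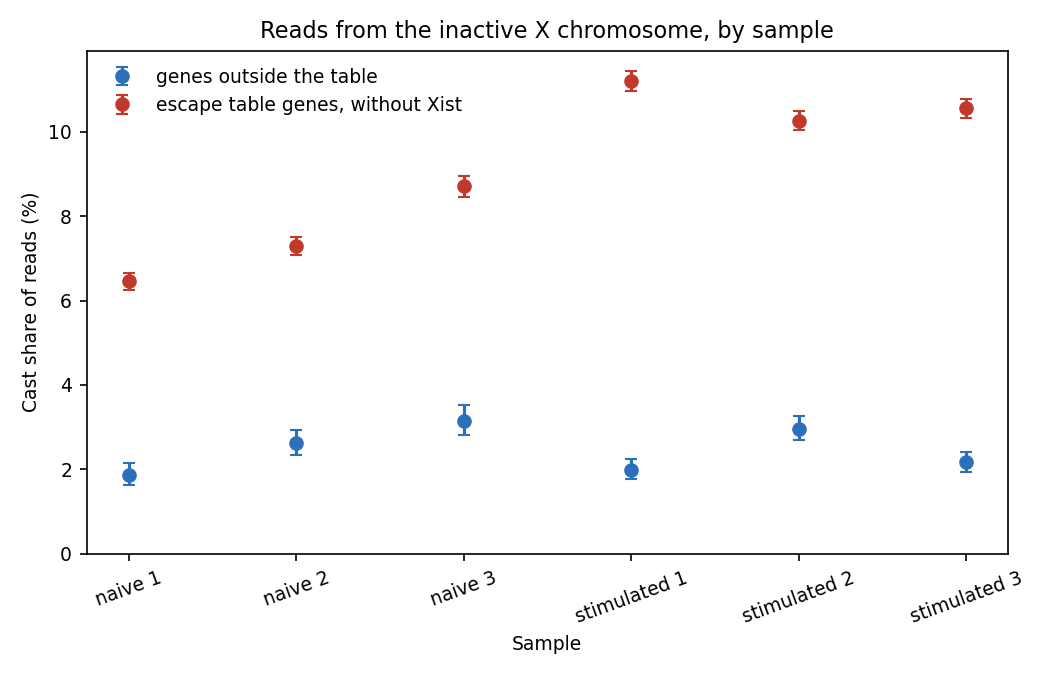
The Cast share of summed reads in percent is plotted for each sample, in blue for the 88 genes and in red for the 96 escape table genes without Xist; bars are 95% Wilson intervals, some smaller than the point. The 88 genes sit between 1.86% and 3.14% with no step between naive and stimulated samples, while the table genes sit at 6.46% to 8.71% in naive and 10.3% to 11.2% in stimulated samples.

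Cast reads were spread thinly over the genes. Every one of the 88 had at least 1 Cast read over the 6 samples, 39 had some in every sample, and the highest count in any sample was 20. The Cast share of a gene over all samples had a median of 2.39%, with quartiles of 1.70% and 3.27% and a range of 0.144% to 8.81%. It exceeded 5% in 12 genes and was under 1% in 5. The 5 genes with most Cast reads, with Yipf6, Tbl1x, Mtmr1 and Slc25a53 among them, held 224 of the 1716, or 13.1%. The ranges of the 88 and of the escape table overlapped: 67 of the 97 table genes had a share below the highest of the 88, and 15 had one below the median of the 88.

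The highest shares rested on few reads and on particular replicate numbers. Rbm41, a gene for an RNA-binding protein, had 0, 2 and 7 Cast reads in naive replicates 1 to 3 and 0, 7 and 12 in stimulated replicates 1 to 3, beside 34 to 69 reads on the 129 allele. Its share over all samples was 8.81% (95% Wilson interval 6.16 to 12.4). Piga had 0, 0 and 12 Cast reads in naive and 3, 6 and 20 in stimulated samples, so 32 of its 41 Cast reads came from the samples numbered 3. Piga's share was 24.5% in naive replicate 3 and 17.2% in stimulated replicate 3, and at most 4.72% in the other 4 samples. Taf1, a subunit of the general transcription factor TFIID, had 0, 0 and 5 Cast reads in naive and 4, 0 and 6 in stimulated samples.

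Rps6ka3 had Cast reads in all samples, 7, 10 and 3 in naive and 2, 6 and 3 in stimulated, and a share of 8.07% (5.75 to 11.2). Tbl1x likewise had 7, 4 and 5 Cast reads in naive and 11, 13 and 4 in stimulated samples, a share of 5.18% (3.88 to 6.88). Yipf6, with most Cast reads of all, had 3, 7 and 10 in naive and 10, 3 and 15 in stimulated samples, yet a share of 1.68% because its 129 reads were many. Amer1, Pja1, Elk1, Slc35a2 and Mbtps2 had shares of 5.16% to 6.18% on 14 to 27 Cast reads each. A share of 10% or more was reached in at least 1 sample by 10 genes, and in all 3 samples of a group by none.

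At the other end, Wbp5 had 2 Cast reads of 1386, a share of 0.144%. Its Cast reads were 1, 1 and 0 in naive samples and 0 in all stimulated samples, where 0 of 1011 reads allow a share of up to 0.297%. Bcap31 had 18 Cast reads of 2616, a share of 0.688%, and Med12 9 of 1181, a share of 0.762%. Trmt2b had no Cast read in naive samples, 0 of 114, which allows up to 2.63%. Tbc1d25 and Fam50a had none in stimulated samples, 0 of 147 and 0 of 154, which allow up to 2.04% and 1.95%.

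The Cast share of single genes varied together between samples of the same replicate number. Across the 88 genes, the deviation of a gene's share from its group mean had a Pearson correlation of 0.420, 0.192 and 0.499 between naive and stimulated samples numbered 1, 2 and 3. Between samples of different numbers it was -0.401 to 0.101. Deviations from a group mean cancel within the group, so positive values for the same number push those for different numbers down. These correlations run over genes that share libraries and are descriptions. By position along the X, the 22 genes from Zcchc18 to Tceanc had their highest Cast share of each group in the samples numbered 3, 4.22% and 3.07%. The 22 genes from Tfe3 to Mospd1 had it in those numbered 2, 3.29% and 2.99%. In the other 2 sets of 22 genes the numbers did not match: from Mmgt1 to 5430427O19Rik and from Pdk3 to Slc25a53, the highest naive share was in replicate 3 (2.95% and 3.06%) and the highest stimulated share in replicate 2 (2.97% and 3.09%).

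For none of the 88 genes did the ratio of Cast to 129 reads change past the threshold after stimulation. The test was edgeR's interaction of allele and group with a term for each sample, adjusted over 10364 matched genes. It called 0.917% of all matched genes and 0.727% of X-linked genes. Of the 88 genes 42 had a fitted ratio moving toward Cast and 46 toward 129, with a median log2 change of -0.06. At an unadjusted p under 0.05 stood 3 genes, all toward 129, and the lowest adjusted p was 0.265. With the replicate number as a block the test called 7.52% of all matched genes and again none of the 88, of which 8 had an unadjusted p under 0.05. Of these 8, Mtm1, Slc25a53 and Ftsj1 moved toward Cast in the fit without the block, and the others toward 129. Mtm1 had the smallest p with the block (edgeR adjusted p = 0.0689). Its Cast reads were 0, 0 and 2 in naive and 2, 6 and 5 in stimulated samples. Without the block its log2 change was 2.54 (SE 1.07, edgeR adjusted p = 0.441). The median SE of the log2 change was 0.87, with a range of 0.26 to 2.19. Changes well above this size also went uncalled at this depth, such as -2.63 for Atp7a (SE 0.84) and -3.92 for Wbp5 (SE 1.21).

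The 3 genes with the smallest p in the ratio test were Atp7a, Wbp5 and Ssr4. Atp7a had 5, 3 and 3 Cast reads in naive and 0, 1 and 0 in stimulated samples, while its 129 reads were 108 to 146 and 69 to 131 (log2 change of the ratio -2.63, SE 0.84, edgeR adjusted p = 0.265). Ssr4, a subunit of the complex that stands beside the protein channel of the endoplasmic reticulum, had 1, 2 and 7 Cast reads in naive and 2, 1 and 1 in stimulated samples (log2 change -1.93, SE 0.80, edgeR adjusted p = 0.421). Wbp5 rests on 2 Cast reads (log2 change -3.92, SE 1.21, edgeR adjusted p = 0.309).

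Genes whose Cast share was higher, or lower, in every stimulated than in every naive sample were looked for among the 68 genes with at least 10 Cast reads. The groups did not overlap for 6 of them, 8.82%: 2 higher and 4 lower. Among matched autosomal genes with the read minimum the groups did not overlap for 20.4%, 10% higher and 10.4% lower. Among escape table genes it was 19.6%, 15.5% higher and 4.12% lower. The count among the 88 was below both, and their Cast reads were fewer, with a median of 17 per gene over all samples against 82 for the table genes.

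The 2 genes with a higher share were Fam3a and Wdr13, and both had fallen on the active X. Fam3a had 1 Cast read in each naive sample and 3, 2 and 2 in stimulated samples, a share of 1.42% ± 0.217 against 4.77% ± 1.40. Wdr13 had 2, 6 and 4 Cast reads in naive and 2, 4 and 2 in stimulated samples, so its Cast reads did not increase while its 129 reads went from 137 to 155 down to 42 to 75. Its share was 2.64% ± 1.27 and 4.59% ± 0.450. Neither passed the ratio test (log2 change 1.73, SE 0.60, edgeR adjusted p = 0.472 for Fam3a, and 0.90, SE 0.55, edgeR adjusted p = 0.734 for Wdr13). The 4 genes with a lower share were Zfp275, Ssr4, Atp7a and Syap1, with 12 to 15 Cast reads each.

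**Figure D4:**
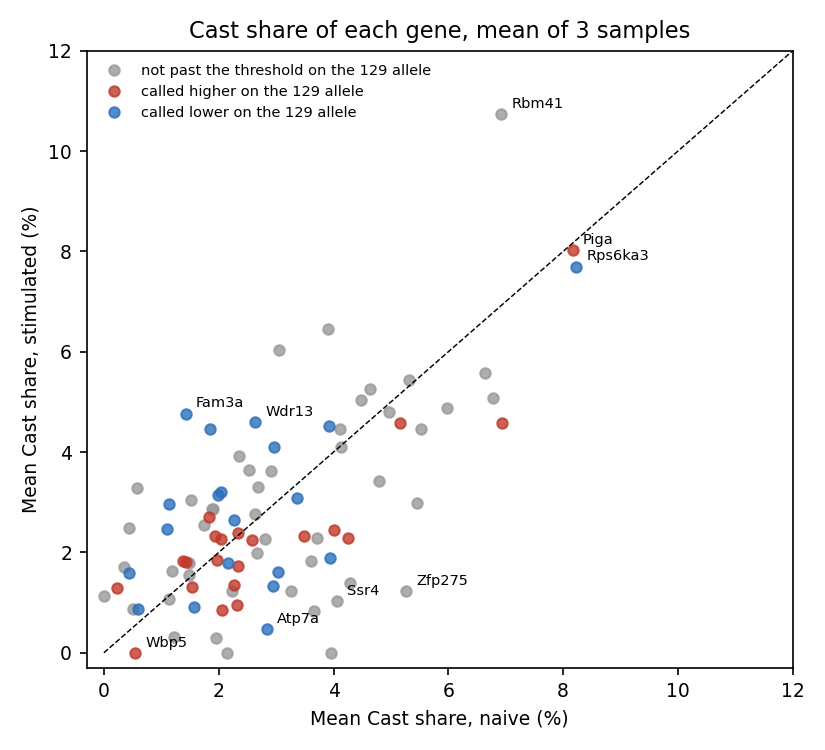
Each point is 1 of the 88 genes, with the mean Cast share in percent of 3 naive samples on the horizontal axis and of 3 stimulated samples on the vertical axis, coloured by its call on the 129 allele; the dashed line marks equal shares. The points lie on both sides of the line, 43 above and 45 below, and Rbm41, Piga and Rps6ka3 lie farthest out.

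None of the 88 genes had enough reads in the Cast tables to be tested there under the main filter on low counts, by which 62.2% of 10365 genes were called. With no filter, edgeR called 3 of them. The share of all genes called on the Cast allele with no filter, or with DESeq2, is not given here. Sat1 had 4, 4 and 15 Cast reads in naive and 3, 0 and 1 in stimulated samples, and fell on this allele too (log2 fold change -2.70, edgeR adjusted p = 0.0172). Ftsj1 had 0, 1 and 0 Cast reads in naive and 2, 15 and 2 in stimulated samples (log2 fold change 3.60, edgeR adjusted p = 0.0196), and stimulated replicate 2 held 15 of its 20 Cast reads. Tbc1d25 had 3, 5 and 0 Cast reads in naive samples and none in stimulated ones (edgeR adjusted p = 0.0372). DESeq2 called Sat1 alone (log2 fold change -2.89, DESeq2 adjusted p = 0.0460).

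Cast reads were also summed by the genes' call on the 129 allele. Their means were higher after stimulation for genes that rose on that allele and lower for genes that fell, and the groups overlapped. The 21 genes that rose went from 906 ± 45.6 to 1948 ± 104 RPM on the 129 allele, by their choice, and from 21.1 ± 6.32 to 36.1 ± 15.2 RPM on the Cast allele (SD, n = 3 each). The 20 genes that fell went from 1346 ± 45.9 to 626 ± 3.41 on the 129 allele and from 28.0 ± 5.65 to 15.1 ± 6.49 on the Cast allele. The 47 others had 47.6 ± 13.1 RPM on the Cast allele in naive and 47.0 ± 8.83 RPM in stimulated samples. The Cast values of naive and stimulated samples overlapped in all 3 sets. By replicate number, the genes that fell had fewer Cast reads after stimulation in all 3 pairs, 21.5 to 11.2, 30.4 to 22.6 and 32.0 to 11.4 RPM, and the genes that rose had more in pairs 1 and 2, 15.6 to 31.7 and 19.6 to 53.0 RPM, but not in pair 3, 28.0 to 23.5 RPM. As a share, the genes that rose had 2.65% ± 0.775 and 2.08% ± 0.967, and the genes that fell had 2.38% ± 0.476 and 2.65% ± 1.09. The part of 129 reads given to the wrong strain in these Cast reads was not tested.

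**Figure D5:**
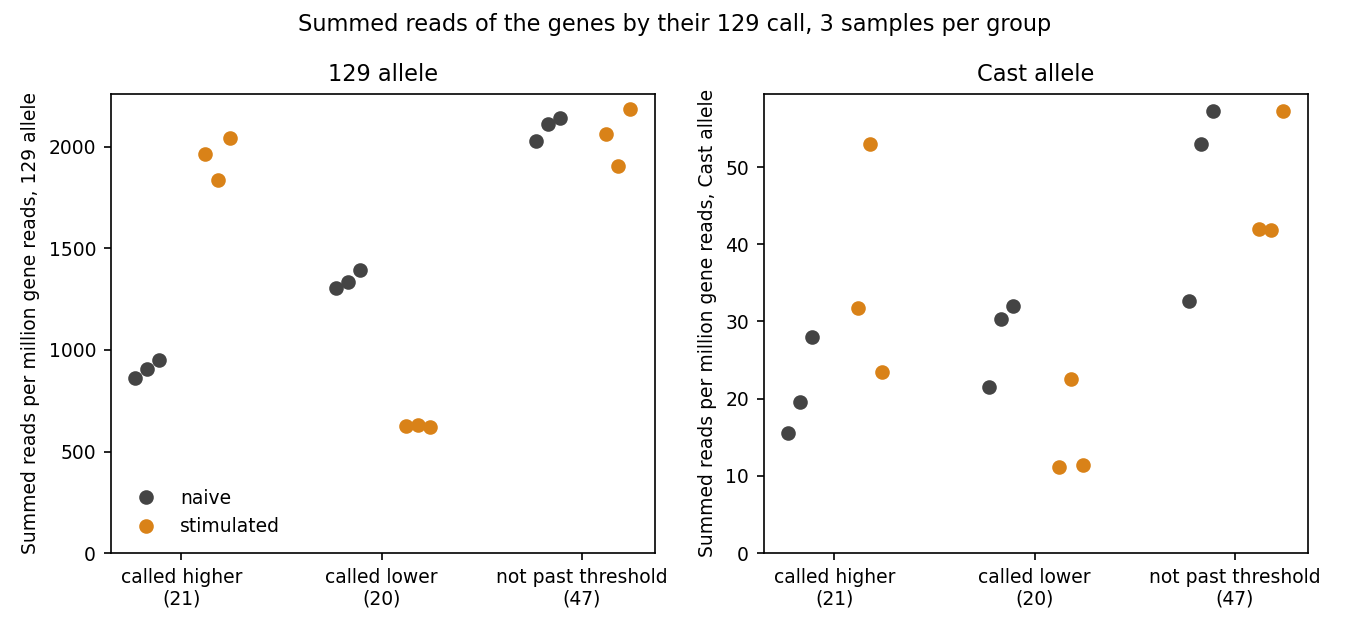
Summed RPM, over the gene reads of the same strain's table are plotted for each sample, on the 129 allele (left) and the Cast allele (right), for the 21 genes called higher, the 20 called lower and the 47 others on the 129 allele; naive samples are grey and stimulated samples orange. On the left the groups are separate for the genes called, by their choice, and on the right the naive and stimulated points overlap in all 3 sets.

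Position next in gene order to a gene with a high Cast share was compared last. The 22 genes next to an X-linked gene with a Cast share of 10% or more had a median share of 2.51% and a highest of 6.18%. The 66 genes with no such neighbour had a median of 2.39% and a highest of 8.81%. Neighbours were taken in the gene order of RefSeq on GRCm38.p6 among genes with reads here, not among all RefSeq genes. Ubl4a, Ngfrap1 and Uxt, just outside the read minimum, were neighbours of none of these genes. There was no limit on the distance between neighbours, and the difference was not tested. Chm and Trmt2b counted as neighbours although their promoter windows start at 113185466 and 134276935. The comparison therefore does not measure closeness to a gene with a high Cast share.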

How the data were processed

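RNA of 6 B cell samples was sequenced with a stranded total RNA kit, per the labels' protocols. Raw read counts per gene were deposited in 12 tables, 1 for each sample and strain. The submitters' processing notes name STAR, featureCounts, Subread 2.0.0 and mm10; the step that gave a read to a strain is not given in the sources used here. The escape table, deposited by the authors, also holds group means in RPKM, an SRPM score and a ratio of scores; only its gene names were used here. The rows for reads in no gene stayed out of library sizes. In the 129 tables they held 62.6% to 67.1% of aligned reads in naive and 48.1% to 56.7% in stimulated samples. In the Cast tables they held 57.9% to 62.1% in naive and 44.5% to 52.3% in stimulated samples.

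Counts were tested with edgeR 4.0.16 in R 4.3.3 (quasi-likelihood, robust, TMM, filterByExpr), and with DESeq2 1.42.0 as an alternative, and the procedure was tested on simulated data. CPM values use TMM-scaled library sizes. The ratio test took matched genes whose 129 and Cast reads summed to 10 or more in 3 or more samples. No 2 libraries agreed within sampling noise (chi-square per degree of freedom 5.96 to 15.7). Samples of the same replicate number deviated together (Pearson correlation over genes of 0.443 to 0.608 in the 129 tables and 0.163 to 0.246 in the Cast tables), so the numbers were taken as pairs in an alternative fit with a block.

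The genes and lists were chosen with earlier results of these data known. Named were the 12 largest rises and falls among called genes that averaged 50 reads or more and whose groups did not overlap; up to 4 called genes per list; the 10 highest Cast shares and the 5 highest Cast counts; genes with at least 10 Cast reads whose shares did not overlap; genes called on the Cast allele or in the ratio test; the 3 genes on each side of the read minimum; and up to 5 well counted genes that did not pass. Tceanc, Brwd3, Phka2, Acot9, Alg13, Hsd17b10, Med14, Emd, Mospd2, BC065397, Ap1s2, A830080D01Rik, Trmt2b (for its Cast reads), Mtm1, Tbc1d25 and Fam50a were named outside that rule, after their values were seen. Some genes that the rule selects are not reported here.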

Additional observations from a re-analysis of the deposited data

How the results depend on the processing

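Precision was limited by the number of samples and, on the Cast allele, by at most 20 reads per gene and sample. On the 129 allele the count of called genes was 41 (21 higher, 20 lower). It was 42 with RLE size factors (55.5% of all genes called), 41 with no filter on low counts (33.4% of 18629 genes) and 36 with DESeq2 (41.4% of 14528 genes). When 1 sample was left out it was 32 to 40 (47.6% to 50% of all genes), with 17 to 22 higher and 14 to 18 lower. A test against a minimum log2 fold change of 1 left 9 genes, 6 higher and 3 lower (23.9% of all genes). With a read minimum of 100 per sample, 29 genes remained in the set and 16 were called, 8 higher and 8 lower. With a minimum of 10, 130 genes were in the set and 65 were called, 32 higher and 33 lower. The sets differ in size by construction. Of all genes tested in the main fit 55.2% were called, and the share among autosomal genes with these minimums is not given here.

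In the fit with the replicate number as a block, 44 genes were called on the 129 allele, 23 higher and 21 lower, beside 65.1% of all genes. All 41 were kept and Ap1s2, A830080D01Rik and Tbc1d25 were added. In the ratio test the block called 0 of the 88.

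Of the 41 genes, 29 passed whichever sample was left out. The other 12 were Acot9, Alg13, Atp7a, BC065397, Brwd3, Emd, Hsd17b10, Mospd2, Nkap, Phka2, Tceanc and Zcchc18; each of the 6 samples, left out, ended the call of at least 1 of them. Without the filter on low counts, 3 genes were called on the Cast allele, 1 higher and 2 lower, and with DESeq2 1, which was lower. For these fits of the Cast allele the share of all genes called is not given here. In the ratio test 0 of the 88 were called with X-linked genes alone, with 30 reads in every sample, or with any 1 sample left out. The Cast share of the 88 was 2.24% to 2.88% in naive and 2.07% to 2.56% in stimulated samples when 1 sample was left out. Without naive replicate 3 the naive mean (2.24%) was below the stimulated one (2.37%), the opposite order. No called gene named here reversed on the 129 allele; Atp6ap2, Ofd1, Fam199x and Bcap31, which did not pass, changed sign when 1 sample was left out (to 0.16 for Atp6ap2 and -0.0075 for Ofd1 without naive replicate 1, 0.08 for Fam199x without naive replicate 3 and -0.08 for Bcap31 without stimulated replicate 3).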
